A study of Mus musculus with 64 samples.

Results

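Hes5 and 9 further genes of the Notch pathway or close to it (Hes1, Hes6, Hey1, Hey2, Notch1, Notch2, Dll1, Jag1 and Id1) were followed in the nucleus accumbens (NAc) and prefrontal cortex (PFCx) of mice given a psychotropic drug. Members were found by gene symbol, 10 genes of the 46785 in the tables and 39 of the 112714 transcripts. Hes5 was picked because its level after a drug differed from saline in these same libraries. Its drug values are therefore given as a description with no test. The other 9 genes were picked for their pathway, though with earlier results of these data known. Tests of drug against saline cover those 9. Their p-values, and those of the gene lists below, are therefore not free of selection.

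RNA was taken from adult male C57BL/6N mice, 8 to 10 weeks old, 2 h after 1 intraperitoneal injection. The drugs were the antidepressants mianserin at 20 mg/kg and venlafaxine at 16 mg/kg, the anesthetic ketamine at 20 mg/kg, the stimulant methamphetamine at 2 mg/kg, and the antipsychotics haloperidol at 1 mg/kg and risperidone at 0.5 mg/kg. The vehicle was saline, with a drop of HCl for haloperidol and risperidone, and control mice received saline. The 64 libraries held 4 per drug and tissue and 8 per tissue after saline, and levels are in FPKM, a read number scaled by transcript length and library depth. The sources do not say that libraries of a group came from separate mice, so p-values measure the spread between these libraries. Nor do they say whether NAc and PFCx libraries came from the same mice. The main tests between tissues treated the libraries as independent.

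Notch is a receptor on the cell surface that is activated by a ligand on a neighbouring cell, such as Dll1 or Jag1. Proteases then release its intracellular part, which enters the nucleus and joins the DNA-binding protein RBPJ to switch on target genes. Hes1, Hes5, Hey1 and Hey2 are such targets and encode transcriptional repressors, while Hes6 encodes a relative that can oppose Hes1. In the adult brain the pathway is known for keeping neural stem cells undifferentiated, and astrocytes express several of its targets. Id1 encodes an inhibitor of basic helix-loop-helix factors and is a classical target of bone morphogenetic protein (BMP) signalling.

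The start of Hes5 is shown because the results turn on this gene and its promoter holds RBPJ core motifs. The 250 bases before the RefSeq start lie at chr4:154960673-154960922 (GRCm38.p6, plus strand), with TGGGAA or its reverse complement TTCCCA in capitals.
Hes5: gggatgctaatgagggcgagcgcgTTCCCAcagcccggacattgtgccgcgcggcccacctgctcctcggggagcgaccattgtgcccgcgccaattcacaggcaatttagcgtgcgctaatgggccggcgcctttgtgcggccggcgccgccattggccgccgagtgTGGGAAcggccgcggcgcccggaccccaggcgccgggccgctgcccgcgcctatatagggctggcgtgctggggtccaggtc
The first bases of the capitals lay at -226 and -82 from the start. TGGGAA was searched on both strands and was present in 21.6% of 32851 promoters of the same length. Of the 7 members with a promoter in the table, Hes5 and Hey2 held it, Hey2 with 1 copy at -207. These 7 genes had 9 promoters, so 2 of 9 promoters held it, near the share of all promoters. A match is a run of letters and not a measured binding site. Hes5 itself spans chr4:154960923-154962371 on the plus strand (ENSMUSG00000048001), with a protein-coding transcript of 3 exons (ENSMUST00000049621) and a shorter noncoding one of 2 exons (ENSMUST00000151480).

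The control libraries came in 2 labelled sample sets, I and II, with 4 libraries each per tissue. Haloperidol, risperidone and methamphetamine libraries matched set I and mianserin, venlafaxine and ketamine libraries matched set II by the number of transcripts above 0 in the NAc, 85287 to 87827 in set I and 107099 to 110556 in set II. In the PFCx these numbers overlapped between the sets, and each drug was placed by its NAc libraries. Each difference below was taken against all 8 saline libraries and again against the 4 of the same set. The depth estimated from the tables was 1.52 to 3.26 gigabases per library. Striatal markers were higher in the NAc and cortical ones in the PFCx, for example Drd2 at 14.6 and 0.485 FPKM and Neurod6 at 2.38 and 15 FPKM in NAc and PFCx after saline. Fewer cells of a type and less RNA per cell cannot be told apart in such tissue samples.

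Hes5 was lower after mianserin in both tissues. In the NAc the mianserin libraries read 2.12, 2.42, 2.29 and 3.95 FPKM. The 4 saline libraries of set II read 5.46, 6.21, 5.83 and 6.33 FPKM and those of set I 9.74, 6.64, 6.56 and 9.71 FPKM. All 4 mianserin libraries lay below all 8 saline libraries, and the mean of 2.69 ± 0.845 FPKM (SD, n = 4) was 38.2% of the mean over saline, 7.06 ± 1.69 FPKM (n = 8), and 45.2% of that of set II. The difference of mean log2(FPKM + 1) was -1.13 with a standard error of 0.16, and -0.94 with a standard error of 0.17 against set II.

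In the PFCx the mianserin libraries read 2.65, 2.10, 1.7 and 1.5 FPKM. Saline libraries read 4.03, 4.33, 4.72 and 5.18 FPKM in set II and 6.57, 6.66, 5.05 and 6.25 FPKM in set I. The groups again did not overlap. The mean of 1.99 ± 0.508 FPKM (n = 4) was 37.2% of the saline mean of 5.35 ± 1.02 FPKM (n = 8) and 43.5% of that of set II, a log2 difference of -1.09 (SE 0.16) and, against set II, -0.91 (SE 0.17). All mianserin libraries lay below all saline libraries for 0.529% of the 37034 genes tested in the NAc, and for 0.783% in the PFCx. Nothing is read from these shares, since Hes5 was chosen on this contrast.

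**Figure D1:**
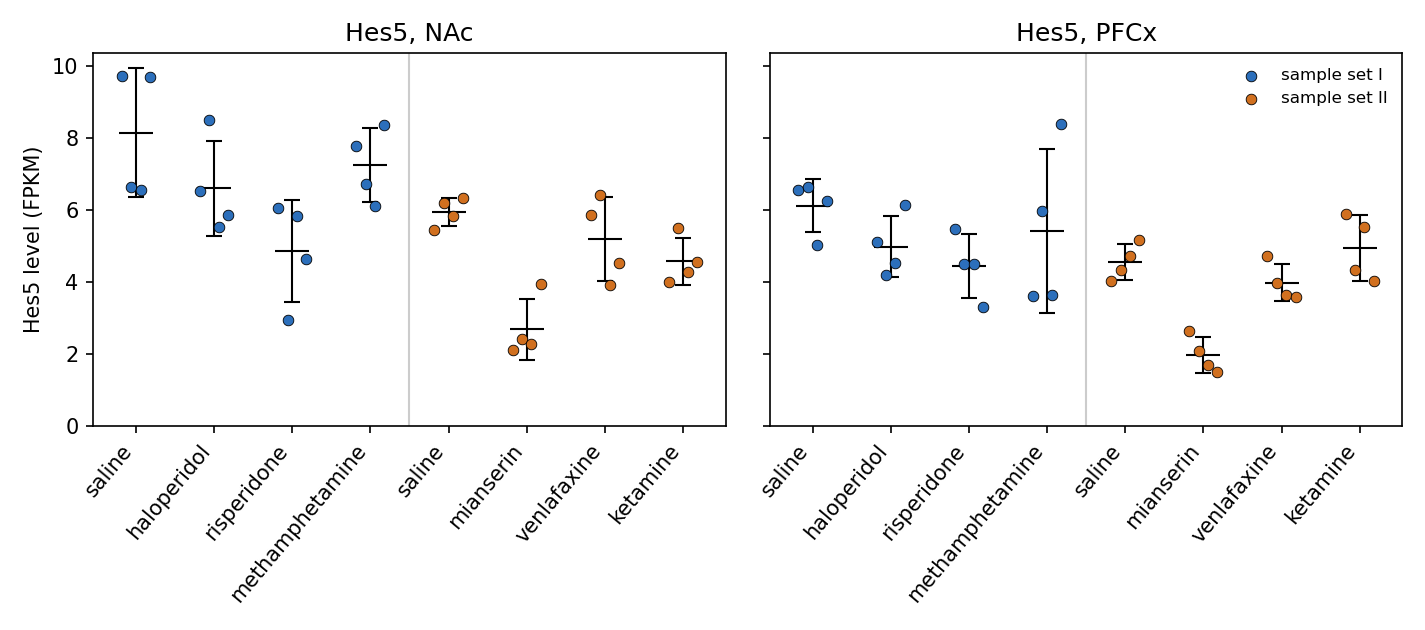
Hes5 level in FPKM (vertical axis) in each library of the NAc (left) and PFCx (right), by treatment, with sample set I in blue and set II in orange. Points are libraries, the long bar is the group mean and the error bar 1 SD (n = 4), and the mianserin libraries, at 2.12 to 3.95 FPKM in the NAc and 1.5 to 2.65 FPKM in the PFCx, lie below all saline libraries of the same tissue.

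The protein-coding Hes5 transcript carried 71.6% of the gene's FPKM in NAc libraries and 70.3% in PFCx libraries. It read 1.27, 2.28, 1.73 and 1.48 FPKM after mianserin in the NAc and 3.41 to 6.64 FPKM in the 8 saline libraries, with no overlap. In the PFCx it read 1.40, 1.81, 1.34 and 1.00 FPKM after mianserin and 2.96 to 4.50 FPKM after saline, again with no overlap. The noncoding transcript scattered widely, from 1.19e-05 to 4.99 FPKM over the NAc saline libraries and from 0.138 to 2.47 FPKM after mianserin. The highest mianserin library of the NAc for the gene, replicate 4, was the one with 2.47 FPKM of this noncoding transcript. Its coding transcript, at 1.48 FPKM, lay within the range of the other 3 libraries.

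The summed level of Hes5 after the other drugs was nearer to saline. After risperidone in the NAc it read 6.06, 2.95, 5.83 and 4.64 FPKM, below the 4 saline libraries of set I, as 1.45% of genes were, though overlapping with set II. That mean was 59.7% of set I, a log2 difference of -0.66 (SE 0.17). After ketamine in the NAc the mean was 77.1% of set II, a log2 difference of -0.32 (SE 0.17), with 1 library inside the saline range. Over the 12 comparisons of a drug with saline of the same set, the Hes5 mean on the log2 scale was lower in 11, and ketamine in the PFCx, at 108% of set II, was the exception. Drugs of a set share their saline libraries, so these comparisons are not independent. By the same count Jag1 was lower in 12 and Hey1 in 9, and no share of all genes is given. Outside mianserin the means ran from 59.7% to 108% of their set. In order of level after a drug, mianserin was lowest in both tissues and methamphetamine highest, and the neighbours above mianserin (ketamine and risperidone in the NAc, venlafaxine and risperidone in the PFCx) overlapped with each other. The protein-coding transcript alone lay farther below all saline than the sum did after haloperidol and risperidone in the PFCx. After haloperidol it read 2.96, 2.77, 2.2 and 2.84 FPKM, at or below the lowest saline library (2.96 FPKM), a log2 difference of -0.40 (SE 0.11, and within set I -0.40, SE 0.13), where the sum gave -0.08 and -0.25. After risperidone it read 3.84, 2.38, 2.81 and 1.88 FPKM, overlapping with saline, a difference of -0.41 (SE 0.11, and within set I -0.40, SE 0.13), where the sum gave -0.22 and -0.40. After venlafaxine, methamphetamine and ketamine in the PFCx it lay between -0.12 and 0.01 with either control. The highest NAc mianserin library, at 3.95 FPKM, overlapped with the lowest after risperidone (2.95 FPKM) and venlafaxine (3.92 FPKM), and in the PFCx no mianserin library reached the lowest library of another drug, 3.31 FPKM.

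Astrocyte markers were read beside Hes5. Their 12 genes summed to 382 to 399 FPKM after mianserin in the NAc, within the 356 to 440 FPKM of the saline libraries. In the PFCx they summed to 406 to 463 FPKM against 389 to 477 FPKM. Slc1a2, Aldoc and Slc1a3, at 175, 90.9 and 57.2 FPKM after saline in the NAc, made up most of such a sum. The median log2 difference of the 12 genes was -0.04 in the NAc (0.06 within set II), against 0.04 (0.01) for all genes. In the PFCx it was -0.02 (-0.11 within set II), against -0.03 (-0.01) for all genes. None of the 12 passed the test after mianserin in the NAc with either control, where 1.84% of all genes did against all saline. In the PFCx Sox9 fell with both controls and Slc4a4 also fell against set II. Of the 37034 genes tested, 247 were called after mianserin in the PFCx against all saline. All 12 markers were above 2 FPKM on average after saline in each tissue, the lowest being Sox9 at 2.62 FPKM in the NAc. Markers of neural progenitors summed to 15.2 to 18.8 FPKM after mianserin and 15.4 to 17.0 FPKM after saline in the NAc, and 10.6 to 12.2 FPKM against 11.2 to 15.5 FPKM in the PFCx. The 8 oligodendrocyte markers summed to 191 to 221 FPKM after mianserin and 149 to 206 FPKM after saline in the PFCx, and had a median log2 difference of 0.27 (0.31 within set II), above the -0.03 (-0.01) of all genes. None of these 8 was called against all saline by limma and Cldn11 was called higher against set II. In the NAc they summed to 608 to 642 FPKM against 585 to 802 FPKM. Of 5 markers of oligodendrocyte precursors, Olig2 was called higher after mianserin in the NAc with both controls, and Gpr17 lower in both tissues against all saline but not against set II. The shares of all genes called after mianserin with each control are given below. Nothing is read from these single marker calls. The part of these cells in the Hes5 and Hes1 values was not tested.

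Hes1, another repressor of the Hes family, was higher in the PFCx after mianserin and risperidone. After mianserin it read 3.35, 3.37, 3.5 and 2.21 FPKM and after risperidone 2.99, 2.73, 3.15 and 3.51 FPKM. Saline libraries read 1.44, 1.02, 1.01 and 1.44 FPKM in set II and 2.16, 1.66, 1.67 and 2.07 FPKM in set I. Every mianserin and risperidone library lay above every saline library, though the lowest mianserin library exceeded the highest saline one by little. Genes with such a gap upwards made up 0.57% of those tested after mianserin and 0.794% after risperidone, and 0.343% and 0.284% were called higher.

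After mianserin Hes1 averaged 3.11 ± 0.601 FPKM (n = 4), 199% of the saline mean of 1.56 ± 0.425 FPKM (n = 8). The log2 difference was 0.69 (SE 0.15, limma adjusted p = 0.0196), and 0.88 (SE 0.16, adjusted p = 0.00271) against set II. Against set I alone, to which the mianserin libraries were not assigned, the log2 difference was 0.50 with an adjusted p of 0.0986. The call was also lost without mianserin replicate 1, 2 or 3, with adjusted p-values of 0.0855, 0.0968 and 0.107. After risperidone Hes1 averaged 3.09 ± 0.324 FPKM (n = 4), with a log2 difference of 0.69 (SE 0.15, adjusted p = 0.0231). Against set I it was 0.50 (SE 0.16), with an adjusted p of 0.373, so the risperidone call did not hold within its sample set. With any 1 of the 4 risperidone libraries left out, or saline set II replicate 3, the adjusted p was 0.0503 to 0.0976.

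The protein-coding Hes1 transcript (ENSMUST00000023171, 4 exons) carried 71.9% of the gene's FPKM in the PFCx. It read 3.00, 2.50, 2.65 and 1.58 FPKM after mianserin, 2.34, 2.58, 2.45 and 2.63 FPKM after risperidone and 0.582 to 1.30 FPKM after saline, with no overlap. Its log2 difference after mianserin was 0.77 (SE 0.13, limma adjusted p = 0.00263) and against set II 0.94 (SE 0.14, adjusted p = 0.000441). After risperidone it was 0.82 (SE 0.13, adjusted p = 0.0032), and against set I 0.64 (SE 0.14, adjusted p = 0.0958). Of all 86331 transcripts tested in the PFCx, 0.351% were called after mianserin and 0.158% after risperidone.

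In the NAc, Hes1 read 1.80, 1.43, 1.62 and 3.20 FPKM after mianserin, above the 4 saline libraries of set II (0.886 to 1.24 FPKM), as 2.28% of genes were, but overlapping with set I, where 1 library read 2.14 FPKM. The log2 difference of 0.48 (SE 0.15) did not pass (limma adjusted p = 0.0825, and 0.264 against set II). Without saline set I replicate 4, that library at 2.14 FPKM, the difference was 0.56 with an adjusted p of 0.0469. In the other 31 of 32 fits that each left out 1 library it was not called. Over the 10 other settings the adjusted p was 0.0615 to 0.264. The mianserin difference of Hes1 in the NAc was smaller than in the PFCx by 0.21 (SE 0.21), which was not called (adjusted p = 0.697). Methamphetamine gave log2 differences of 0.44 (NAc) and 0.54 (PFCx), with adjusted p-values of 0.29 and 0.149.

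Across the 9 members other than Hes5, 1 of 54 pairs of a gene and a drug passed the test in the NAc, 2 of 54 did so in the PFCx, and 0 and 1 of 54 against saline of the same set. Of all genes in the NAc, 0.721% were called after haloperidol, 0.729% after risperidone, 0.194% after methamphetamine, 1.84% after mianserin, 1.83% after venlafaxine and 1.97% after ketamine, and in the PFCx 0.162%, 0.51%, 0.351%, 0.667%, 0.0054% and 0.0162% in the same order. Against the same set these shares were 0.235%, 0.213%, 0.0891%, 0.273%, 0.0081% and 0.967% for NAc genes, and 0.0216%, 0.162%, 0.159%, 2.01%, 0.74% and 1.51% for PFCx genes. At an unadjusted p below 0.05 there were 15 NAc pairs and 7 PFCx pairs, and 7 of each against the same set. These unadjusted counts have no share of all genes beside them, and nothing is read from them. Over the pairs the log2 differences had a median of -0.01 (NAc) and 0.03 (PFCx).

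Among the targets, Hey1 encodes a repressor that was the most abundant member after saline. In the NAc it read 6.34, 6.38, 5.27 and 7.02 FPKM after mianserin and 6.66, 5.99, 6.59 and 5.93 FPKM after ketamine, and all 4 ketamine libraries lay below the 8 saline libraries, which ran from 6.69 to 10.5 FPKM. Below-saline gaps of this kind occurred in 0.413% of genes after ketamine. The log2 differences were -0.32 for mianserin and -0.30 for ketamine (limma adjusted p = 0.0672 and 0.0713), and within the sample set -0.16 and -0.14 (adjusted p = 0.716 and 0.646). Hey2, a related repressor, stayed between 82.4% and 133% of saline with a lowest adjusted p of 0.341. Hes6 ranged from 83% to 137%, with a lowest adjusted p of 0.204. Its 4 risperidone libraries in the PFCx read 2.51, 2.45, 2.11 and 2.33 FPKM, above the set I saline libraries (1.2 to 1.99 FPKM), as 2.05% of genes were, but overlapping with set II.

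Neither receptor gene was called after any drug. Notch1 kept between 84% and 124% of its saline level over the 12 comparisons and Notch2 between 88.8% and 124%, with lowest adjusted p-values of 0.411 and 0.185. A short noncoding Notch1 transcript (ENSMUST00000147481) rose after venlafaxine in the NAc by a log2 difference of 0.31 (SE 0.06, limma adjusted p = 0.046), and the call was lost against set II (0.30, adjusted p = 0.51). It was also lost in 20 of 32 fits that each left out 1 library, those of other drugs among them, with adjusted p-values of 0.0511 to 0.101, and the lost calls included those without saline set I replicate 2, 3 or 4 and venlafaxine replicate 2, 3 or 4. At 0.0727 FPKM on average in the NAc it carried 1.38% of the gene's FPKM, and 0.0579% of all transcripts were called in that comparison.

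Of the ligands, Dll1 fell after ketamine in the NAc. The libraries read 2.02, 1.23, 2.07 and 1.60 FPKM against 2.01 to 3.89 FPKM after saline, so the ranges overlapped. The log2 difference was -0.43 (SE 0.11, limma adjusted p = 0.0385) and within set II -0.34 (SE 0.12, adjusted p = 0.273), and 0.54% of genes were called lower. Without ketamine replicate 2, 3 or 4, or any 1 saline library of set I, the adjusted p ranged from 0.0525 to 0.12. Dll1 means in the NAc were below saline after each of the 6 drugs, at 64.4% to 87.8%, while in the PFCx they ran from 99.7% to 135%. These 6 values share their saline libraries. Jag1 ranged from 68.7% to 101% of saline and Id1 from 59.5% to 134%, and neither was called after any drug.

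**Figure D2:**
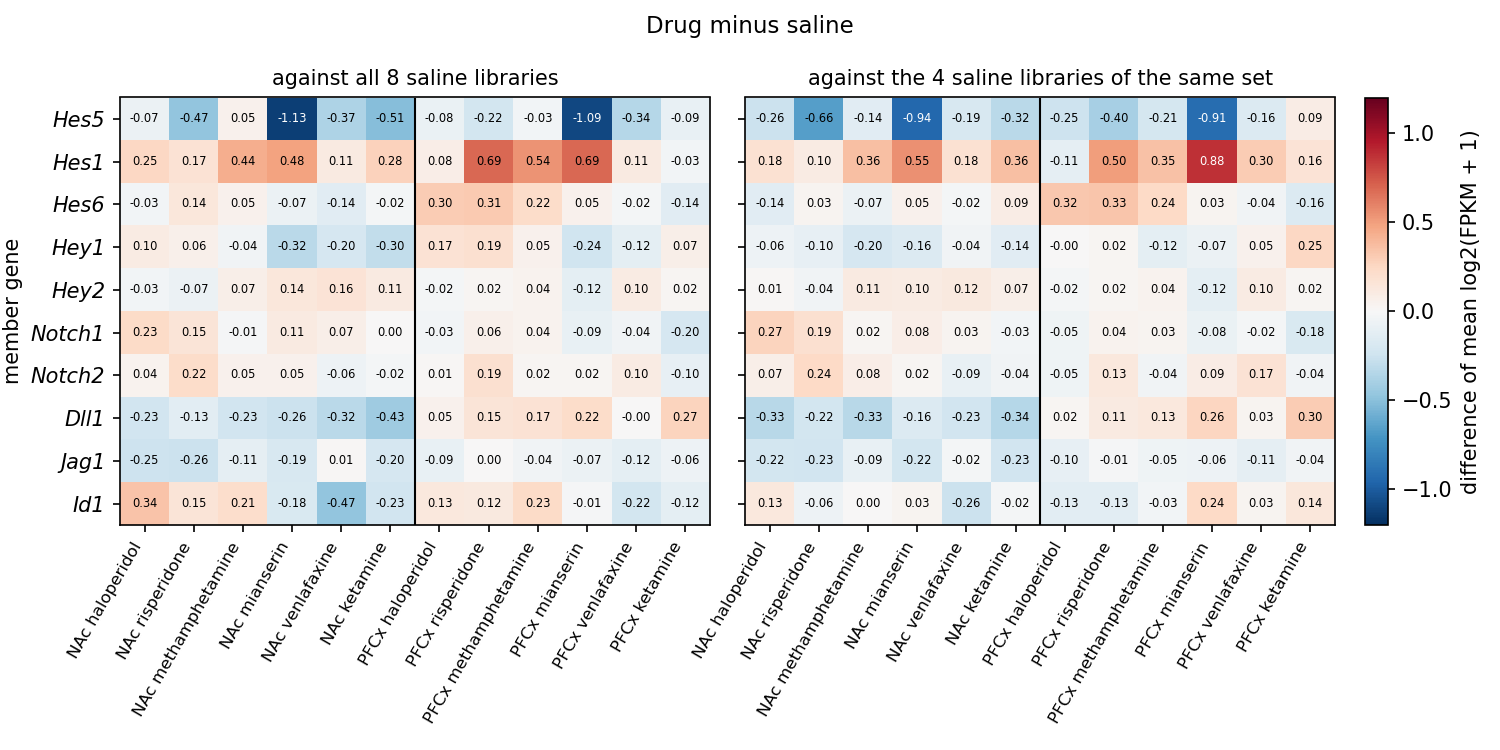
Difference of mean log2(FPKM + 1) between drug and saline (colour and printed value, red higher and blue lower after the drug) for the 10 members (rows) and the 12 comparisons of drug and tissue (columns), against all 8 saline libraries (left) and against the 4 of the same sample set (right). The largest values are those of Hes5 after mianserin, -1.13 and -1.09 on the left and -0.94 and -0.91 on the right. On the left, Hes1 in the PFCx follows, at 0.69 after both mianserin and risperidone. On the right, Hes1 in the PFCx after mianserin (0.88) follows, and then Hes5 in the NAc after risperidone (-0.66). Hes1 in the NAc after mianserin (0.55) and in the PFCx after risperidone (0.50) come next there.

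The F test over all 6 drugs gave 3 of the 9 members in the NAc, namely Id1 (limma adjusted p = 0.00247), Hey1 (0.0055) and Dll1 (0.0386). It also called 36.9% of all genes there, so 3 of 9 was near the background. With the control taken from the same sample set it called 0 of 9, with 2 of 9 below an unadjusted p of 0.05, and 1.63% of all genes. In the PFCx it called Hes1 alone with both controls (adjusted p = 0.00483 and 0.00517), against 3.34% and 1.45% of all genes. Whether the drug effects differed between the tissues was tested as the interaction of drug and tissue. None of the 9 passed by limma, with a lowest adjusted p of 0.0872 (Dll1), against 12.9% of all genes, and 2 of 9 had an unadjusted p below 0.05. For Dll1 after ketamine the log2 difference in the NAc minus that in the PFCx was -0.70 (SE 0.18, adjusted p = 0.057). With the control of the same set the numbers were 0 of 9 and 1 of 9, where 0.759% of all genes passed the adjusted test. The counts of members at an unadjusted p have no share of all genes beside them, and nothing is read from them.

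The saline libraries of the sample sets differed in several members. In the NAc, all set I libraries lay above all set II libraries for Hes5 (means of 8.16 and 5.96 FPKM) and Hey1 (9.12 and 7.05 FPKM), that is for 2 of 10 members, where 5.71% of all genes lay that way and 24.2% the other way. In the PFCx this held for Hes1 (1.89 and 1.23 FPKM) and Id1 (2.57 and 1.5 FPKM), against 6.83% of all genes, with 6.45% the other way. Id1 in the NAc averaged 2.88 FPKM in set I and 1.88 FPKM in set II. Set and drug cannot be told apart in the values against all 8 saline libraries, since each drug was placed in 1 set.

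After saline, 5 of the 10 members differed between the tissues, a contrast that the choice of Hes5 did not use. Dll1 was higher in the NAc, at 2.68 ± 0.571 FPKM against 1.34 ± 0.324 FPKM (n = 8 each), with no overlap between 2.01 to 3.89 and 0.789 to 1.83 FPKM. Its log2 difference was 0.65 (SE 0.10, limma adjusted p = 9.76e-05). Notch2 (0.31, adjusted p = 0.00265), Jag1 (0.28, adjusted p = 0.0204) and Hes5 (0.34, SE 0.12, adjusted p = 0.0431) were also higher in the NAc, and Hey2 was lower (-0.21, adjusted p = 0.0113). Of all genes 33.9% were called, 7.16% higher in the NAc and 26.8% lower, and the median difference over all genes was -0.10. With the sample set as a term in the model 5 members passed among 39.9% of all genes, Hes5 with an adjusted p of 0.00541. The Hes5 call did not survive removal of any of 9 single saline libraries, where its adjusted p was 0.0565 to 0.0861. Hes1 was at 1.14 and 1.56 FPKM in NAc and PFCx (log2 difference -0.26, adjusted p = 0.0974). Without NAc saline set I replicate 4 the difference was -0.34 with an adjusted p of 0.0175. In the other 15 of 16 fits that each left out 1 saline library, Hes1 was not called.

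**Figure D3:**
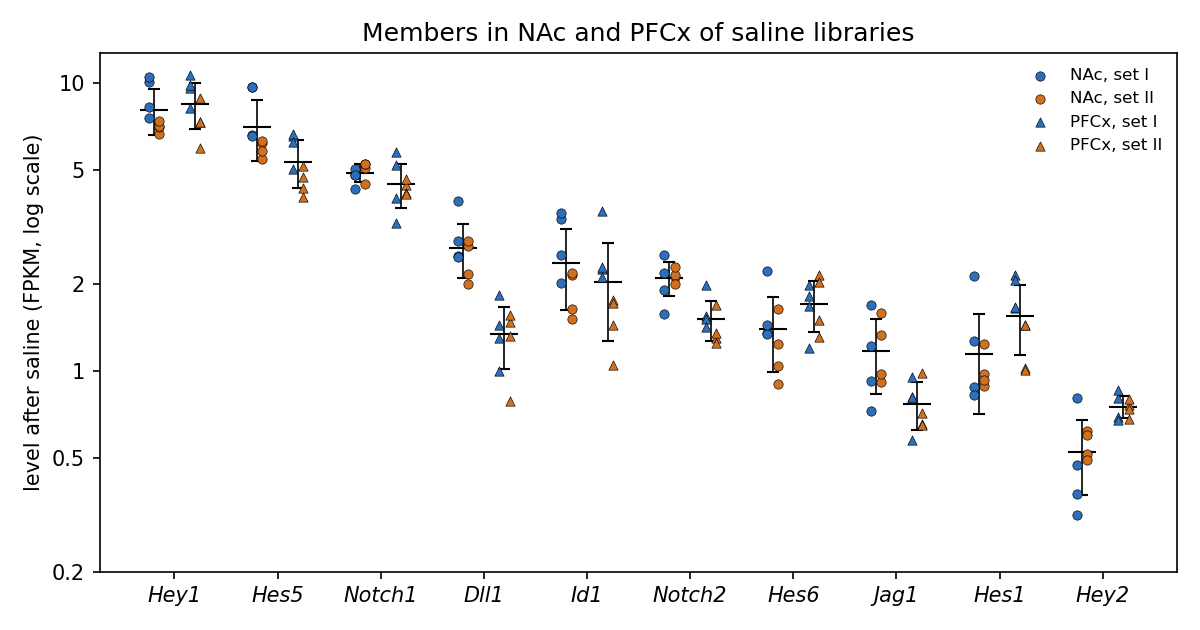
Level of each member after saline in FPKM (vertical axis, log scale), with circles for NAc and triangles for PFCx libraries, and sample set I in blue and set II in orange. The long bar is the mean and the error bar 1 SD (n = 8), members are ordered by their NAc mean from Hey1 (8.09 FPKM) to Hey2 (0.523 FPKM), and Dll1 is the member whose tissues stand farthest apart.

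The levels after saline in the NAc, which FPKM scales by length, ran from Hey1 (8.09 ± 1.45 FPKM) and Hes5 (7.06 ± 1.69 FPKM) through Notch1 (4.88 ± 0.348 FPKM) to Hey2 (0.523 ± 0.153 FPKM). Hey1 and Hes5 lay within 1 SD of each other, as did Dll1 (2.68 ± 0.571 FPKM) and Id1 (2.38 ± 0.75 FPKM), and Id1 and Notch2 (2.10 ± 0.282 FPKM).

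Of 55 further genes of the Notch pathway, chosen by role with earlier results of these data known, Lfng was called in more than 1 comparison. It encodes the Fringe glycosyltransferase that modifies Notch receptors. In the PFCx it read 5.43, 5.62, 4.27 and 4.97 FPKM after risperidone and 2.26 to 3.36 FPKM after saline, with no overlap. The log2 difference was 0.63 (SE 0.11, limma adjusted p = 0.00301), and within set I 0.64 (SE 0.13, adjusted p = 0.0282). In the NAc it rose after risperidone (6.01 ± 0.276 FPKM, n = 4, against 3.85 ± 0.478 FPKM, n = 8) and after haloperidol, calls not made within set I. Sox9, a transcription factor of astrocytes and stem cells, fell after mianserin in the PFCx, from 2.96 ± 0.329 to 2.2 ± 0.32 FPKM. Its log2 difference was -0.31 (SE 0.07, adjusted p = 0.0224), and within set II -0.30 (adjusted p = 0.0435). Without mianserin replicate 1, 3 or 4 the adjusted p was 0.0905 to 0.109. Over all 660 tests of these 55 genes, 4 were higher and 2 lower, or 0.909%, near the 0.75% of all genes over the same 12 comparisons. Within the sample set 2 were higher and 1 lower, or 0.455%, against 0.532% of all genes. The list had a median difference after mianserin of -0.01 (NAc) and 0.00 (PFCx), where that of all genes was 0.04 and -0.03.

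Of 16 Id and BMP genes, Eng, a co-receptor on endothelial cells, rose after ketamine in the NAc, reading 4.10, 2.67, 3.30 and 3.03 FPKM against 1.70 to 2.60 FPKM after saline. The log2 difference was 0.48 (SE 0.10, limma adjusted p = 0.0141), within set II 0.52 (adjusted p = 0.0212), and without ketamine replicate 1 it was 0.39 with an adjusted p of 0.0532. Endothelial markers, Eng among them, summed to 40.1 to 44.9 FPKM after ketamine and 35.2 to 41.2 FPKM after saline. Of the 11, Eng itself and Slc2a1 were called, where 1.97% of all genes were, and the median log2 difference of the 11 was -0.01 (-0.02 within set II), below the 0.05 (0.02) of all genes. Their part in the Eng result was not tested. Over all 192 tests of the 16 genes, 2 were higher and 3 lower, or 2.6%, against 0.75% of all genes. The 3 lower calls were all of Id3, after ketamine and mianserin in the NAc and after mianserin in the PFCx, and none was made within the sample set. There, 1 of the 192 tests was called, that of Eng, or 0.521% against 0.532% of all genes.

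The genes whose levels followed Hes5 most closely were taken over the 64 libraries, after the mean of each tissue and sample set was subtracted, from 14501 genes with a mean of at least 1 FPKM in both tissues. Tob1, an antiproliferative factor, had a Pearson r of 0.666, Kcnj2, a potassium channel, 0.661, and Id3, an inhibitor of helix-loop-helix factors, 0.632, followed by Gm14636 (0.629) and Gm38372 (0.625). The most opposed were Sgk1, a glucocorticoid-induced kinase (-0.718), Txnip, a thioredoxin inhibitor (-0.705), Gm37728 (-0.703), Gm43486 (-0.686) and Gm37899 (-0.655). Drug means were not subtracted, so the fall of Hes5 after mianserin, for which it was picked, enters each r. These values describe libraries that share drugs and depth and carry no test. Id3 averaged 2.31 FPKM after mianserin and 4.22 FPKM after saline in the NAc, and 1.78 and 4.66 FPKM in the PFCx, where saline of set II alone averaged 3.28 FPKM (NAc) and 3.09 FPKM (PFCx). Sgk1 averaged 62.9 and 19.0 FPKM in the NAc and 33.3 and 13.4 FPKM in the PFCx, in mianserin and saline libraries. Among the members with that level, Hes1 (r = -0.38) and Hey1 (r = 0.373) had the values farthest from 0, and Notch1, Notch2, Dll1, Hes6 and Id1 lay between -0.127 and 0.0578.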

How the data were processed

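Per the labels and methods, total RNA was depleted of ribosomal RNA and sequenced single-end on an Ion Proton system. The authors aligned reads with TopHat2 2.0.1 and then Tmap and estimated transcript levels with Cufflinks 2.2.1 and the Ensembl annotation of GRCm38 (mm10). The authors deposited FPKM per transcript and library, with the read coverage, a signal in reads per base. The tables hold no counts, and transcripts of a gene share reads, so errors can pass between them.

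Library depth came from dividing coverage by FPKM in transcripts of 2000 bases or more and 5 FPKM or more (median). FPKM were summed per gene, and genes with a mean of at least 0.1 FPKM in either tissue were kept, 37034 with all 10 members, and 35 of the 39 member transcripts (86331 of all). Tests used limma 3.58.1 in R 4.3.3 on log2(FPKM + 1), with 1 group per drug and saline pooled over both sample sets, Benjamini-Hochberg adjustment over all features and a threshold of 0.05. Differences on this scale understate changes of low genes. Samples were grouped from the labels. On simulated data for mianserin in the NAc, 94 of 100 genes changed by 1 on the log2 scale were called, 64 of 100 changed by 0.5, and 9 of the rest. For the PFCx these numbers were 92, 55 and 15. The simulated noise was independent between libraries and held no difference between sample sets, and the changed genes were drawn from the better expressed ones. These numbers therefore do not measure recovery for low members or where the sets differ.

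Members and lists were chosen with earlier results of these data known. Named genes were the members, up to 3 per direction, drug and tissue of the Notch and Id lists that passed with both controls, and the 5 genes most like and most opposed to Hes5. Promoters came from RefSeq (GRCm38.p6). The table held none for Hes1, Hey1 and Id1, which were not analysed here. Alternatives covered the saline set, pseudocount, filter, scaling, statistic, replicate number and each library left out.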

Additional observations from a re-analysis of the deposited data

Results flagged for a closer look

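In 11 of 140 groups of 4 or 8 libraries, the highest or lowest library of a member stood apart from the rest by Dixon's test at the 95% level, which chance alone gives in about 1 group in 20. For Hes5 it was NAc mianserin replicate 4, at 3.95 FPKM against 2.12 to 2.42 FPKM in the others. For Hes1 it was PFCx mianserin replicate 4, at 2.21 FPKM against 3.35 to 3.5 FPKM, and NAc saline set I replicate 4, at 2.14 FPKM against 0.822 to 1.27 FPKM. Dll1 read 3.89 FPKM in NAc saline set I replicate 3, against 2.01 to 2.84 FPKM in the others.

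Hes6 was high in replicate 1 of PFCx ketamine (2.48 FPKM against 1.09 to 1.30 FPKM) and of PFCx venlafaxine (1.84 FPKM against 1.57 to 1.61 FPKM). Hey2 was low in NAc mianserin replicate 4 (0.417 FPKM against 0.749 to 0.778 FPKM). Id1 was high in NAc haloperidol replicate 3 (3.77 FPKM against 2.97 to 3.03 FPKM) and low in NAc venlafaxine replicate 3 (0.86 FPKM against 1.57 to 1.65 FPKM). Jag1 was low in PFCx venlafaxine replicate 4 (0.243 FPKM against 0.741 to 0.814 FPKM), and Notch2 was high in NAc ketamine replicate 2 (2.45 FPKM against 1.90 to 1.98 FPKM). Of the mianserin libraries, NAc replicate 4 stood apart for both Hes5 and Hey2.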

How the results depend on the processing

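The Hes5 difference after mianserin ran from -1.37 to -0.94 in the NAc and from -1.39 to -0.91 in the PFCx over the settings tried. Without single libraries it ran from -1.28 to -1.05 and from -1.19 to -1.01. Since Hes5 was chosen on this contrast, these ranges describe its size and do not test it. The values of -1.37 and -1.39 came with a pseudocount of 0.1, whose smaller offset widens log2 differences by construction. The choice of saline control moved the counts most. With saline of the same set, the F test called 0 of 9 members in the NAc, and 0 gene pairs and 0 transcript pairs were called there, with 1 gene pair in the PFCx. With set I as the only control there were 9 gene pairs and 10 transcript pairs in the NAc, 2 members past F and 1 gene pair in the PFCx, and 1 member that differed between tissues. With set II as the only control the numbers were 6 and 3 in the NAc, 2 members past F and 6 gene pairs in the PFCx, and 3 members between tissues. The calls over all genes moved as well. Over the alternatives they ran from 97 to 1.1e+04 genes for mianserin in the NAc and from 202 to 1.27e+03 in the PFCx. No share of all genes is given for set I or set II alone, so nothing is read from these member counts. Members between tissues also numbered 3 with a filter at a mean of 1 FPKM, which leaves out Hey2 and Jag1 by construction. Transcript pairs in the NAc numbered 0 with that filter, 2 with the ordinary statistic and 0 with the replicate block. For the other moves the cause was not tested. Rescaling to the same 75th percentile turned Hey1 between tissues from -0.06 to 0.02, not called either way, and moved the median tissue difference of all genes from -0.10 to -0.08. It also took Sox9 after mianserin to an adjusted p of 0.0586.

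Without single libraries, members past F ranged from 2 to 4 in the NAc and 1 to 2 in the PFCx, gene pairs from 0 to 5 and 1 to 2, transcript pairs from 0 to 2 and 2 to 3, members with a tissue difference of the drug effect from 0 to 1, and members between tissues from 4 to 5. Gene pairs in the NAc numbered 0 without ketamine replicate 2, 3 or 4 or saline set I replicate 1, 2 or 3, and 4, 4, 5 and 2 without saline set II replicate 1, 2, 3 and 4. Members past F in the PFCx numbered 2 without haloperidol replicate 3 or ketamine replicate 1, and the tissue difference gave 1 member without PFCx haloperidol replicate 1. Same-numbered libraries of a set correlated by 0.164 in the NAc and 0.24 in the PFCx on average, with minima of -0.09 and -0.142. Libraries of a set with different numbers averaged -0.0546 and -0.0736, and same-numbered ones of different sets 0.0387 and -0.00223. Numbers were not taken as pairs, so the main tests did not model this likeness within a set. The replicate block joined equal numbers across both sets and did not model it by set either. With the replicate block, 4 members differed between tissues, since Hes5 had an adjusted p of 0.0589, and the Notch1 transcript after venlafaxine 0.0754. All-gene calls with saline of the same set numbered 101 against 681 for mianserin in the NAc, 744 against 247 in the PFCx, and 603 against 13674 for the NAc F test. Without counts, depth sets no interval on single values.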
